A study of Mus musculus with 69 samples.

Results

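The expression of 10 genes that mark fat cells was followed in mouse lung: 7 genes of white adipocytes (Adipoq, Cfd, Lep, Plin1, Retn, Fabp4 and Cidec) and 3 genes of brown adipocytes (Ucp1, Cidea and Cox8b). They were taken by name, as every array probe whose transcript is assigned to one of these symbols in RefSeq, and of the 27479 probes with 1 RefSeq symbol 13 did so. These symbols are 10 of the 18749 genes named on the array, and all 10 were among the 18656 genes tested. Lung RNA of 69 female C57BL/6 mice was hybridised, 1 mouse per two-colour array, with lung RNA in the red channel and a pooled mouse reference RNA in the green channel on every array, so each value is the log2 ratio of lung over reference.

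All mice arrived at 5 to 7 weeks of age, were acclimatised for 1 to 3 weeks and received a single intratracheal instillation. The 14 groups were vehicle (water with 2% serum), 18, 54 or 162 µg of the TiO2 nanomaterial NRCWE-025 and the same doses of the TiO2 nanomaterial NRCWE-030, each collected on day 1 or day 28, with 5 mice per group except 4 for 162 µg NRCWE-025 on day 28. The 5 vehicle mice of a day served both materials, and RNA came from a small frozen piece of lung rather than from a dissected cell type. The lung label was borne out by the epithelial genes: surfactant protein C (Sftpc) lay between 4.97 and 8.29 on the log2 ratio scale and was well above background in the lung channel on all 69 arrays.

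Adipocytes store triglyceride in lipid droplets that are coated by proteins such as perilipin 1, and they secrete hormones such as adiponectin, leptin, adipsin and, in mice, resistin. Brown adipocytes also burn fat for heat through the mitochondrial uncoupling protein Ucp1. Lung parenchyma is not a fat depot, but several fat genes have other known sites of expression: Fabp4 in endothelial cells and macrophages and Cox8b in heart and skeletal muscle.

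The promoters of members that rose and fell together across mice (Adipoq, Cfd, Plin1 and Retn) are shown beside those of Cidec, which followed Adipoq least among the members measured on every array, and Cox8b, which was most like genes of muscle. Each covers 300 bases around the annotated start, 5′ to 3′ on the strand of the gene (RefSeq, GRCm38.p6), of which 250 lie before the start: Adipoq chr16:23146286-23146585 (+), Cfd chr10:79890603-79890902 (+), Plin1 chr7:79732727-79733026 (-), Retn chr8:3655520-3655819 (+), Cidec chr6:113434715-113435014 (-) and Cox8b chr7:140900397-140900696 (-). Capitals mark the pattern TTGCNNAA, a form of the site of the adipogenic C/EBP factors, and TATAAA, the letters of the TATA box, searched on both strands.
Adipoq: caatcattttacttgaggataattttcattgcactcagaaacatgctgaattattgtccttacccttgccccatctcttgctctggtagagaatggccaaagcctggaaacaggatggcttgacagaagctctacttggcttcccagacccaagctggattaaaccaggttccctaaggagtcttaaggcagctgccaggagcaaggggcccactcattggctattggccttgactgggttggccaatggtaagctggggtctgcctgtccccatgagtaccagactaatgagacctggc
Cfd: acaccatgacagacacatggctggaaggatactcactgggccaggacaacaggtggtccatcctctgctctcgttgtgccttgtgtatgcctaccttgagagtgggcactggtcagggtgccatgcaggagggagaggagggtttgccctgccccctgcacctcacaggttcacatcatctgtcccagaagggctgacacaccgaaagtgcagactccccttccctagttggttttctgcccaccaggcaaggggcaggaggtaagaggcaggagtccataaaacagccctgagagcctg
Plin1: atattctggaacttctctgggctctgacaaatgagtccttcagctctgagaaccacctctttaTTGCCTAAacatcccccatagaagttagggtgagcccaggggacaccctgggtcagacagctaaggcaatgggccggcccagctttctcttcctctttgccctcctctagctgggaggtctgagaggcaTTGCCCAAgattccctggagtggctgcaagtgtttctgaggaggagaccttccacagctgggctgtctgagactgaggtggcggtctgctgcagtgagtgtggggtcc
Retn: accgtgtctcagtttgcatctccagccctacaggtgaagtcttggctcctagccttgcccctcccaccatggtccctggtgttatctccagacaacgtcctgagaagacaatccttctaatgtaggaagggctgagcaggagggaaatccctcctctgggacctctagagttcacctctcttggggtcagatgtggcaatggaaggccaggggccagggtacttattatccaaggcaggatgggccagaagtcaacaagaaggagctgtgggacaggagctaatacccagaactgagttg
Cidec: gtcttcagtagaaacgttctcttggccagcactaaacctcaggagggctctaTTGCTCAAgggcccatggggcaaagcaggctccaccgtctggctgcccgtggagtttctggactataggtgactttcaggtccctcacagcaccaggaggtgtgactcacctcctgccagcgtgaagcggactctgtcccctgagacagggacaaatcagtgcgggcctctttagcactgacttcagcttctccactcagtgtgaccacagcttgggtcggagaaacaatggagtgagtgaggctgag
Cox8b: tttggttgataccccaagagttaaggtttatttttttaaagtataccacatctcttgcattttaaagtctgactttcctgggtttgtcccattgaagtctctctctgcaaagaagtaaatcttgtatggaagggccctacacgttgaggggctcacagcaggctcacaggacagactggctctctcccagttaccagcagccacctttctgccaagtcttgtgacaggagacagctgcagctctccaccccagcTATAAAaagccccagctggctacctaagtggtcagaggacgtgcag
TTGCNNAA stood at 2 places in the Plin1 promoter and at 1 place in the Cidec promoter shown, and 10.8% of 32851 promoters of this length hold it. The promoter of a second Cidec start, chr6:113435711-113436010 (-), held no marked pattern. TATAAA stood at 1 place in the Cox8b promoter, at positions 4 to 9, after the annotated start rather than before it. It is held by 13.6% of the promoters. The palindrome TTGCGCAA, a special case of the first pattern, was in 0.183% of promoters and, among the members, in that of Lep. The exact PPARG site, 2 copies of AGGTCA with 1 base between them, was in 0.0396% of promoters and in none of the 9 promoters available for 8 members. The second start of Cidec is included among them, and Fabp4 and Cidea are not. AGGTCA alone was in 16.3% of promoters and, among the members, in that of Ucp1.

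Adipoq was measured by probe A_51_P458451, Cfd by A_51_P156955, Lep by A_52_P374882 (10 spots), Plin1 by A_51_P244497, Cidec by A_51_P490456, Ucp1 by A_51_P426353, Cidea by A_51_P199168 and Cox8b by A_52_P423814. Retn had 2 probes, which were correlated across arrays (r = 0.97), and Fabp4 had 3 (r = 0.82 to 0.94), of which A_52_P564544 was well above background on 41 arrays and the other two on all 69.

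The members fell into genes that were measured on every array and genes near the detection limit. Fabp4 (fatty acid binding protein 4), Cidec, Cidea (both lipid droplet fusion proteins) and Cox8b (a subunit of cytochrome c oxidase) were well above background in the lung channel on all 69 arrays. Cfd, the complement factor adipsin, was so on 64 arrays, Plin1 on 56, Retn by at least 1 of its probes on 41 and Adipoq on 40. Lep passed on 6 arrays and Ucp1 on 2, both of them vehicle mice of day 1. In the reference channel most of these probes were dim as well: Cidea was well above background there on 11 arrays, Cox8b on 20 and Adipoq on 33, so for many arrays the ratio divides by a value near background.

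The range across mice was widest for Cfd, from -0.35 to 8.56 with a median of 3.80, which is a 480-fold range. Adipoq ran from -0.54 to 5.54 (median 0.29), Plin1 from -0.13 to 4.63 (0.48), Retn from -0.35 to 3.36 (-0.06) and Fabp4 from 1.67 to 5.76 (2.60). Cidec stayed between 2.60 and 6.22 (4.53), Cidea between 0.76 and 3.93 (2.03) and Cox8b between 1.47 and 5.46 (3.14). These ranges are ratios to the reference and do not rank the genes by abundance.

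Most of the spread of the white fat genes was between mice of the same group. Group membership took up 22.2% of the variance of Adipoq, 29.5% of Cfd, 18.9% of Plin1, 20.6% of Retn and 11.4% of Fabp4, against 49.5% for Cidec. These shares are descriptions, since 14 groups take up part of the variance of any gene.

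In vehicle mice of day 1 the Adipoq log2 ratios of replicates 1 to 5 were 1.43, 5.27, 0.99, 0.75 and -0.03. In vehicle mice of day 28 they were 1.05, 0.19, 1.92, 5.54 and 1.24. One mouse in each vehicle group thus stood far above the other 4, and these were the highest values among all 69 arrays.

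The same 2 mice held the highest Cfd values, 8.55 on day 1 (replicate 2) and 8.56 on day 28 (replicate 4). Their Plin1 values were 3.98 and 4.63, their Retn values 2.82 and 3.36 and their Fabp4 values 4.82 and 5.76. Cidec was highest in the same mice too, at 5.71 and 6.22. Lep reached its highest value, 0.39, in the mouse of day 28, and Ucp1 its highest, 0.70, in the mouse of day 1. The changes against vehicle are therefore also given without them.

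**Figure D1:**
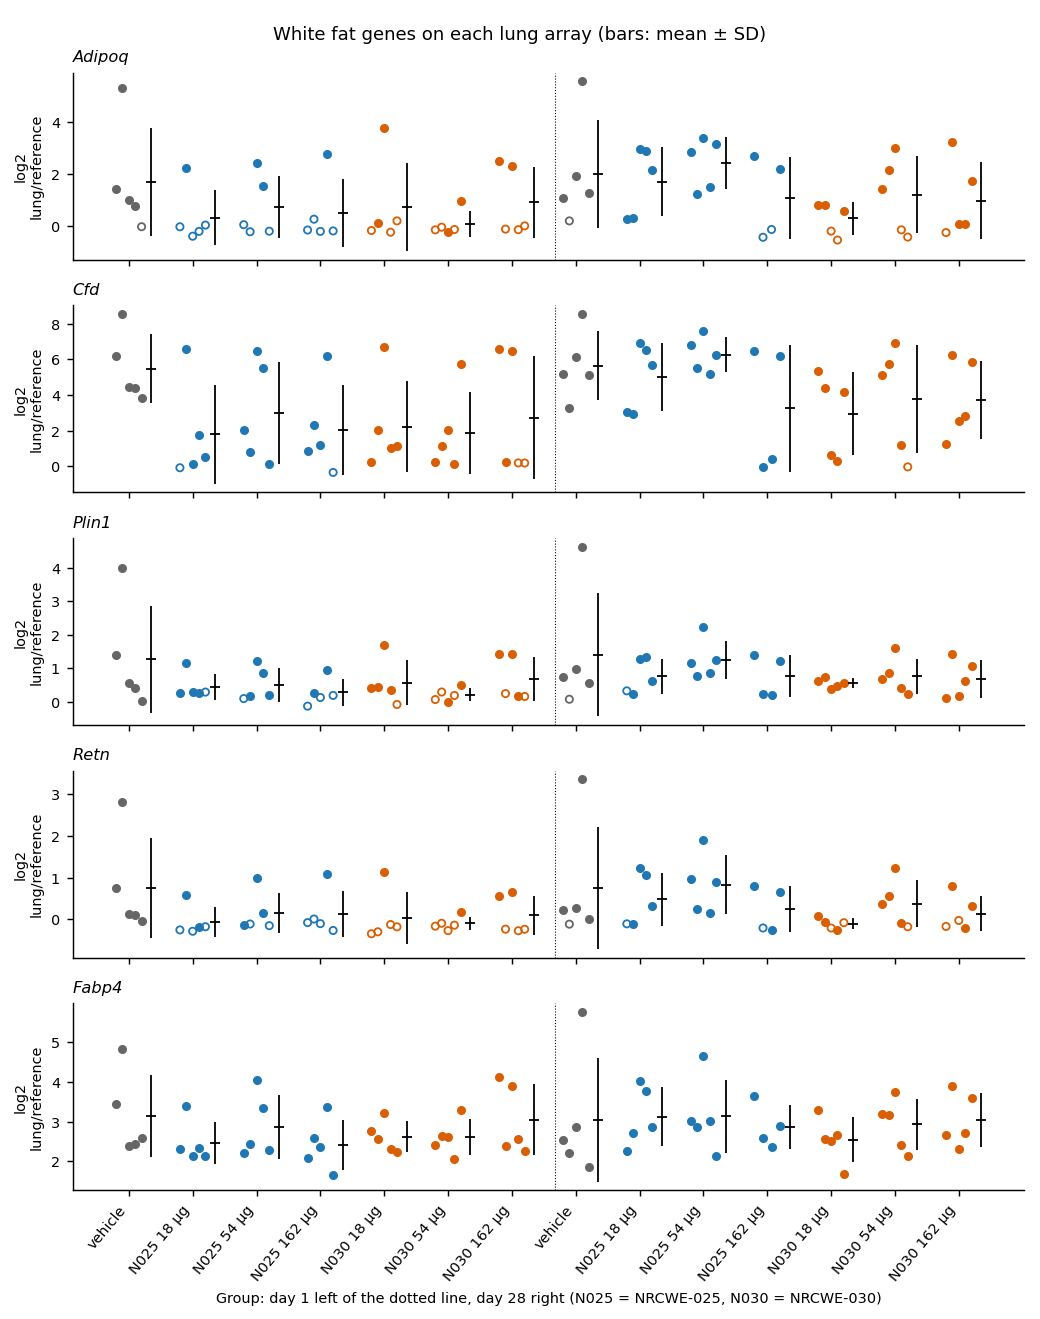
Log2 ratio of lung over reference (y axis) of Adipoq, Cfd, Plin1, Retn and Fabp4 on each of the 69 arrays, by group (x axis). Filled circles are well above background in the lung channel and open circles are not, and bars give the group mean ± SD (n = 4 or 5). Single mice of many groups stand high in several panels at once, with the highest Adipoq values of 5.27 and 5.54 in the vehicle groups.

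Among treated mice of day 1, single mice were high for the same genes. Of the 5 mice given 18 µg NRCWE-025 and collected on day 1, replicate 2 had an Adipoq ratio of 2.21 and the others lay between -0.39 and 0.03. Of those given 162 µg NRCWE-025, replicate 4 had 2.77 and the others lay between -0.21 and 0.26. Of those given 18 µg NRCWE-030, replicate 3 had 3.75 and the others lay between -0.24 and 0.20. In each of these mice Cfd was high as well, at 6.58, 6.21 and 6.67.

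On day 28 several mice of a group were high. Adipoq in the 5 mice given 54 µg NRCWE-025 was 2.82, 1.24, 3.38, 1.48 and 3.14, and Cfd was 6.81, 5.52, 7.59, 5.16 and 6.25, so all 5 mice were at or above 1.24 for Adipoq and 5.16 for Cfd. In the 4 mice given 162 µg NRCWE-025 Adipoq was 2.68, -0.43, -0.13 and 2.18, and Cfd was 6.49, -0.05, 0.40 and 6.17. Here 2 mice were high for both genes and 2 were low for both.

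Across the 69 arrays, Adipoq was correlated with Retn (Pearson's r = 0.93, Spearman's rho = 0.90), Cfd (r = 0.91, rho = 0.93), Plin1 (r = 0.90, rho = 0.85) and Fabp4 (r = 0.83, rho = 0.68). It was also correlated with Cidea (r = 0.72, rho = 0.64) and Cox8b (r = 0.62, rho = 0.49). The permutation p of each r was 1e-05, the smallest that 100000 permutations can give (adjusted p = 1.67e-05 over 15 correlations), and those of the rho values were 1e-05 or, for Cox8b, 2e-05 (adjusted p = 1.87e-05 and 3.33e-05).

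Leaving out the 2 arrays farthest from the Adipoq median, which are the 2 vehicle mice above, gave r = 0.94 for Retn, 0.91 for Cfd, 0.92 for Plin1, 0.76 for Fabp4, 0.66 for Cidea and 0.56 for Cox8b. Removing the mean of each group, slide or scan day kept these r values between 0.63 and 0.95. The members were chosen with earlier results of these arrays known, so these correlations are not independent evidence that fat genes vary together. The 10 pairs among Adipoq, Cfd, Plin1, Retn and Fabp4 had r from 0.75 to 0.95.

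Lep, Cidec and Ucp1 followed Adipoq less closely. Lep had r = 0.49 (permutation p = 6e-05, adjusted p = 9e-05) and rho = 0.35 (permutation p = 0.00314, adjusted p = 0.00471), and r = 0.35 without the 2 farthest arrays (permutation p = 0.00368), in a gene near background. Cidec had r = 0.24 (permutation p = 0.0511, adjusted p = 0.0639) and rho = 0.07 (permutation p = 0.544, adjusted p = 0.606), and r = 0.04 without the 2 farthest arrays. Ucp1 had r = 0.14 (permutation p = 0.241, adjusted p = 0.241) and rho = 0.00 (permutation p = 0.996, adjusted p = 0.996), and r = -0.02 without the 2 farthest arrays.

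Cidea and Cox8b had weak correlations with Ucp1, the third brown fat gene. Cidea and Ucp1 had r = 0.19 (permutation p = 0.111, adjusted p = 0.128), rho = 0.07 (permutation p = 0.566, adjusted p = 0.606) and r = 0.02 without the 2 arrays farthest from the Ucp1 median. Cox8b and Ucp1 had r = 0.33 (permutation p = 0.00538, adjusted p = 0.00734), but rho = 0.20 (permutation p = 0.105, adjusted p = 0.144), and r = 0.20 without the 2 farthest arrays (permutation p = 0.112), so the relation rested on them. Ucp1 was not well above background on 67 arrays, which limits any relation with it.

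**Figure D2:**
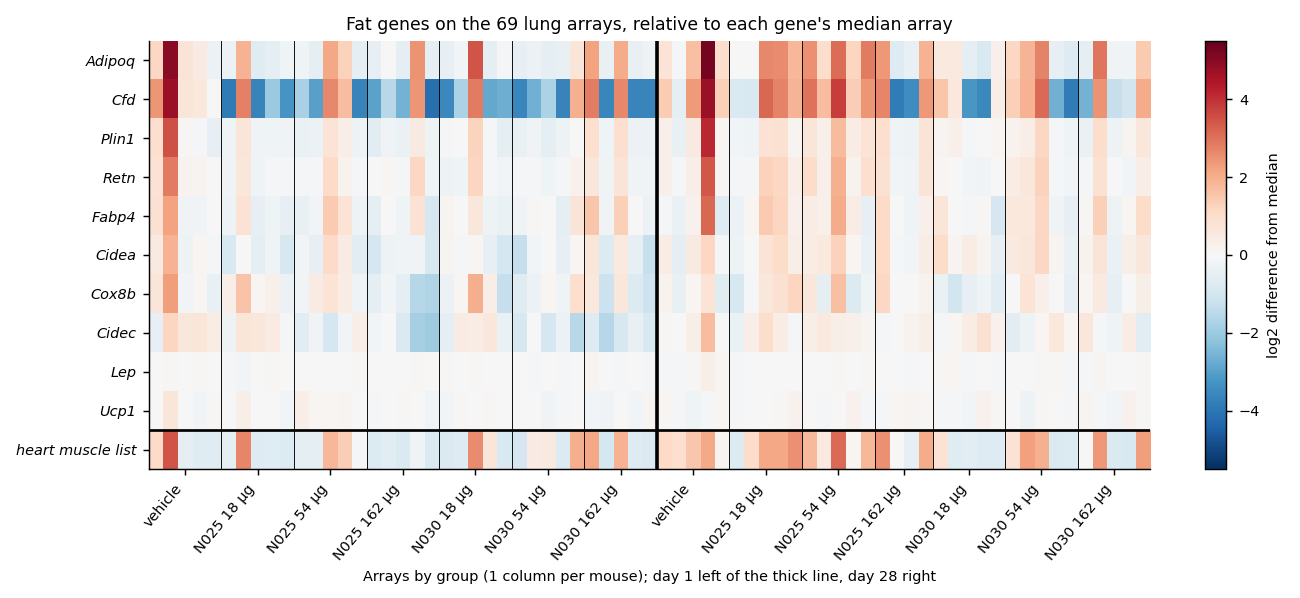
Each gene's log2 ratio on each array minus its median over the 69 arrays (colour), with genes in rows and arrays in columns by group. The last row is the mean of 13 heart muscle genes. The same columns are red for Adipoq, Cfd, Plin1, Retn and Fabp4, and the Lep and Ucp1 rows stay near 0.

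Genes of heart muscle varied with the fat genes. Of 14 listed heart muscle genes 13 were measured, and all 13 had r above 0.5 with Adipoq, Cfd, Plin1, Retn, Fabp4, Cidea and Cox8b, while 0 of 13 did with Lep, Cidec or Ucp1. Their median r was 0.82 with Adipoq, 0.80 with Cfd, 0.75 with Cox8b and 0.70 with Cidea, against 0.14 with Cidec. Of the 13 genes 6 were well above background on all 69 arrays, and phospholamban (Pln) on the fewest, 23.

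For Myh6, the atrial and adult ventricular myosin heavy chain of mice, the correlation was r = 0.80 with Cfd (rho = 0.79), 0.78 with Cox8b (rho = 0.77) and 0.76 with Adipoq (rho = 0.68). Each had a permutation p of 1e-05, again the smallest possible, for r and rho (adjusted p = 1.67e-05 and 1.87e-05), and r of 0.78, 0.75 and 0.73 without the 2 arrays farthest from the Myh6 median. With Ucp1 it was r = 0.19 (permutation p = 0.12, adjusted p = 0.128) and rho = 0.11 (permutation p = 0.348, adjusted p = 0.435), and r = 0.09 without the 2 farthest arrays.

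The mean log2 ratio of the 13 heart genes per array ran from 0.33 to 4.45 in vehicle mice of day 1 and from 1.16 to 3.09 in those of day 28. It was highest, at 4.45, in the vehicle mouse with the Adipoq ratio of 5.27, and it was 3.09 in the mouse with 5.54. It ran from 0.04 to 3.67 in treated mice of day 1 and from 0.17 to 4.10 in those of day 28. The part that heart muscle RNA has in the fat gene values was not tested. Fewer or more fat cells in the piece of lung and less or more RNA per cell cannot be told apart in these bulk samples.

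Among the 14927 other genes that were well above background on at least 10 arrays, the 10 most like Adipoq by Pearson's r over the 69 arrays were Car3 (r = 0.91), Plin4 (0.87), Slc2a4 (0.87), Tnnt2 (0.86), Mybphl (0.85), Csrp3 (0.85), Fhl2 (0.85), Myoz2 (0.85), Myom2 (0.84) and Actn2 (0.84). Car3 (carbonic anhydrase 3), Plin4 (a lipid droplet coat protein) and Slc2a4 (the insulin-responsive glucose transporter) are abundant in fat and muscle. Tnnt2 is cardiac troponin T, and Csrp3, Myoz2, Myom2 and Actn2 are sarcomere genes.

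The 10 genes most like Cox8b were Cox6a2 (r = 0.87), Cox7a1 (0.86), Apobec2 (0.85), Nrap (0.81), Fabp3 (0.80), Mapk10 (0.80), Nppa (0.80), Mybphl (0.79), Fgf12 (0.79) and Mlip (0.79). Cox6a2 and Cox7a1 are the heart and muscle forms of cytochrome c oxidase subunits, Fabp3 is the heart fatty acid binding protein and Nppa is atrial natriuretic peptide. Cox7a1 and Fabp3 are also in the list of thermogenic fat genes used here.

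For Ucp1 the highest r was 0.54, with Ank1, and 2 genes exceeded 0.5. The next were Hoxb3 (0.53), Disp3 (0.49), Pla2g2f (0.48), Tex33 (0.46), Pm20d1 (0.46), Cartpt (0.44), Aldh3a1 (0.44), Ranbp17 (0.44) and 2310002L09Rik (0.43). Without the 2 vehicle mice the r with Ank1 was 0.32.

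Cidec and Cidea had partners of other kinds, named here after their values were seen. Cidec was most like Ltc4s (r = 0.83), the leukotriene C4 synthase, and Ear1 (0.75), a ribonuclease of eosinophils and macrophages, and among the listed genes it had r = 0.63 with Siglecf, a surface marker of alveolar macrophages and eosinophils, and 0.58 with Pparg. The other 3 measured macrophage genes had r with Cidec of -0.17 (Marco), 0.16 (Chil3) and 0.20 (Mrc1). Cidea was most like Fam161a (0.88), Cryaa (0.88), Armc3 (0.88), Rbm24 (0.88), Iqcg (0.88) and Cfap43 (0.88), of which Iqcg and Cfap43 are genes of motile cilia, and it had r = 0.85 with Foxj1, the master regulator of motile cilia. The other listed lung epithelium genes had r with Cidea from 0.11 (Sftpb) to 0.41 (Scgb1a1). Foxj1 also had r = 0.68 with Fabp4, 0.63 with Cfd and 0.49 with Adipoq, against 0.13 with Cidec. Among listed fat and heart genes, Cidea had r = 0.84 with Plin5, 0.80 with Slc2a4 and 0.80 with Myh6. For 82 genes r with Cidea exceeded 0.8, for 44 with Adipoq and for 1 with Cidec.

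**Figure D3:**
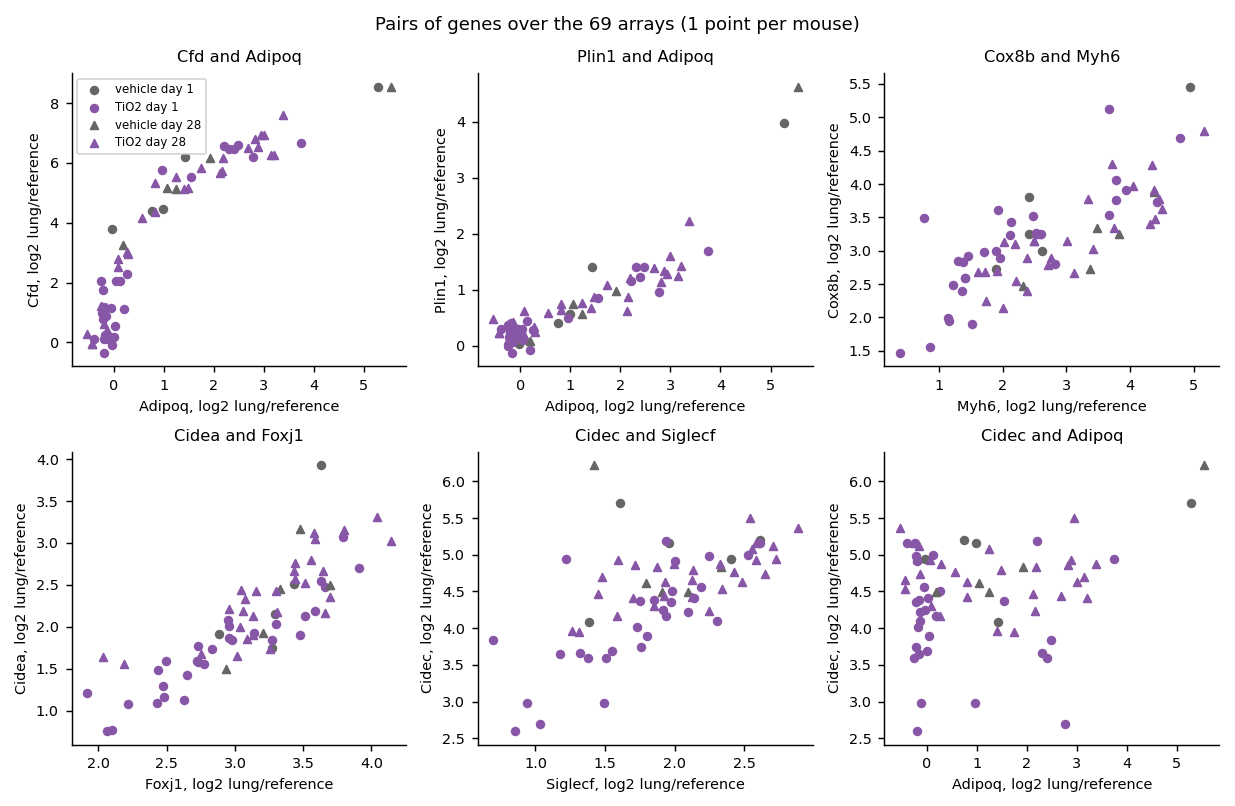
Log2 ratios of lung over reference of pairs of genes on the 69 arrays, 1 point per mouse, with circles for day 1, triangles for day 28, grey for vehicle and purple for TiO2. Cfd and Plin1 rise with Adipoq (r = 0.91 and 0.90), Cox8b with Myh6 (0.78), Cidea with Foxj1 (0.85) and Cidec with Siglecf (0.63), while Cidec and Adipoq scatter (0.24).

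Of the other listed genes of fat cells, 24 of 26 were measured. Of these 7 had r above 0.5 with Adipoq (Car3, Plin4, Slc2a4, Thrsp, Rbp4, Gpd1 and Dgat2, from 0.65 to 0.91). Other lipid genes did not follow Adipoq: Cd36, the fatty acid transporter, had r = -0.38, Lpl, lipoprotein lipase, r = -0.01, and Scd1, a fatty acid desaturase, r = 0.05. All 3 were well above background on all 69 arrays. Of 18 listed genes of thermogenic fat 8 had r above 0.5 with Adipoq and 0 with Ucp1, and Cox7a1 (r = 0.82) and Fabp3 (0.81) led those 8. Elovl3, an elongase of active brown fat, was well above background on 0 arrays, Zic1 on 1 and Lhx8 on 2.

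The first question of the design is whether the groups differ. Among the 14 groups 1 of the 10 members, Cidec, passed limma's moderated F test with Benjamini-Hochberg adjustment over all genes (adjusted p = 0.00198), beside 8.34% of all genes tested. The adjusted p of Cfd was 0.237, of Cidea 0.238, of Cox8b 0.431, of Adipoq 0.547 and of the other members 0.618 to 0.940. Cidec was called after leaving out any 1 array, but not with the background marks ignored (adjusted p = 0.236), from the scanner's own log ratio (0.274) or the series' processed values (0.0509), with scaling between arrays (0.129) or with the slide as a fixed block (0.0600).

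The dose question was asked per material and day against the shared vehicle mice. By limma's moderated F test 0 of 10 members were called in each of the 4 fits, beside 0.0214% of all genes for NRCWE-025 and 0.954% for NRCWE-030 on day 1 and 0.0268% and 0.102% on day 28. At an unadjusted p under 0.05 there were 3, 1, 0 and 0 members in these fits, beside 9.98%, 11.2%, 5.77% and 7.06% of all genes, and the unmoderated F test also called 0 in each. Cidec for NRCWE-030 on day 1 came nearest (adjusted p = 0.0578).

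Cidec was lower at the higher doses on day 1. The vehicle mice had log2 ratios of 4.08, 5.71, 5.16, 5.20 and 4.94, with a mean of 5.02 ± 0.59 (SD, n = 5). With NRCWE-030 the mean was 4.66 ± 0.52 at 18 µg, 3.80 ± 0.61 at 54 µg and, from values of 3.84, 2.98, 3.66, 4.10 and 3.69, 3.65 ± 0.42 at 162 µg (SD, n = 5 each). The highest mouse at 162 µg, at 4.10, lay just above the lowest vehicle mouse, at 4.08, and the other 4 lay below all vehicle mice.

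The 162 µg change of NRCWE-030 was -1.36 ± 0.31 (SE, limma, adjusted p = 0.0306), which was 1 of 30 member contrasts of that material and day, where 1.69% of all genes were called at 162 µg (0.472% lower), 0.0804% at 54 µg and 0.00536% at 18 µg. At 54 µg it was -1.22 ± 0.31 (SE, adjusted p = 0.130) and at 18 µg -0.36 ± 0.31 (SE, adjusted p = 0.862). Leaving out vehicle replicate 2, the array with the highest fat genes, gave -1.19 (adjusted p = 0.0870). The call was also lost without vehicle replicate 3 (adjusted p = 0.0649), 4 (0.0752) or 5 (0.0521) or treated replicate 1 (0.0523), 2 (0.0982), 3 (0.0555) or 5 (0.0596), with the change between -1.60 and -1.19 over the 20 arrays left out in turn. Within the 2 slides that held both groups, 1 mouse of each per slide, the difference was -1.36 and -1.28. Of the other settings tried, the call was kept in 5 of 13, with a change between -1.64 and -0.94 (adjusted p = 0.0192 to 0.332). The 4 measured alveolar macrophage genes had a median change of -0.23 here (2 above and 2 below 0, none called), with Siglecf at -0.52 ± 0.32 (SE, adjusted p = 0.562), and the 13 heart muscle genes one of -0.12, and their part in the Cidec change was not tested.

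For NRCWE-025 the Cidec mean was 4.80 ± 0.44 at 18 µg, 4.23 ± 0.51 at 54 µg and 3.59 ± 0.90 at 162 µg (SD, n = 5 each), where the mice had 4.38, 4.51, 3.74, 2.70 and 2.60. The 162 µg change was -1.43 ± 0.36 (SE, limma, adjusted p = 0.0967), which did not pass. Siglecf in these mice was 1.86, 1.98, 1.76, 1.03 and 0.86, so the 2 mice lowest for Cidec were also the lowest for Siglecf. With 162 µg NRCWE-030 on day 1, Siglecf in replicates 1 to 5 was 0.70, 1.49, 1.32, 2.30 and 1.55. There the match did not hold: Siglecf was lowest in replicate 1 and Cidec in replicate 2. Siglecf was chosen after its values were seen. The other measured macrophage genes followed Cidec less over the 69 arrays (r = -0.17 for Marco, 0.16 for Chil3 and 0.20 for Mrc1). The Siglecf change at 162 µg NRCWE-025 was -0.50 ± 0.24 (SE, limma, adjusted p = 0.404), and its part in the Cidec values was not tested. Within the 2 slides that held mice given 162 µg NRCWE-025 and vehicle mice of day 1, the Cidec difference was -0.65 and 0.30. Each slide held 1 mouse of each group. Of 30 member contrasts 0 were called for this material and day, beside 0% of all genes at 18 and 54 µg and 0.209% at 162 µg, and 7 had an unadjusted p under 0.05, beside 5.12%, 6.53% and 12.3% of all genes at the 3 doses.

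At 162 µg on day 1 the Cidec means of the 2 materials, 3.59 and 3.65, differed by less than their SDs. Over the 3 doses 0 of 10 members were called between the materials on day 1 (0.155% of all genes) or day 28 (0.241%) by limma's moderated F test, and 0 had an unadjusted p under 0.05 on either day. A p above the threshold does not show that the materials act alike.

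Cfd had the widest gap to vehicle. On day 1 the 5 vehicle mice had 6.21, 8.55, 4.47, 4.40 and 3.80, and 22 of the 30 treated mice lay below the lowest of them. The median of the treated mice was 1.14 against 4.47 in vehicle mice, and treated values ran from -0.35 to 6.67. The 6 changes against vehicle ran from -3.70 to -2.50 on the log2 scale, each with an SE of 1.44 or 1.52, and their adjusted p by limma ran from 0.332 to 0.971. Without vehicle replicate 2 the changes were -2.94 to -1.73.

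On day 28 the vehicle mice had Cfd ratios of 5.18, 3.26, 6.16, 8.56 and 5.12, and 11 of 29 treated mice lay below all of them. The median was 5.16 in treated and 5.18 in vehicle mice. The group means ranged from 2.95 ± 2.33 (SD, n = 5) with 18 µg NRCWE-030 to 6.27 ± 0.98 (SD, n = 5) with 54 µg NRCWE-025, and neighbours in that order did not differ beyond their SDs.

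Adipoq, Plin1, Retn and Fabp4 had the same sign on day 1. With Cfd they gave 30 gene and dose contrasts, all 30 with the estimate below vehicle (median -0.82), against a median over all genes between -0.01 and 0.01 in each contrast, and none called. Without vehicle replicate 2 the median of the 30 was -0.22 and 26 were below 0. On day 28 25 of 30 were below vehicle (median -0.62), and without vehicle replicate 4, 9 of 30 (median 0.17). The 6 contrasts of a day share their vehicle mice, so their signs are not separate observations.

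**Figure D4:**
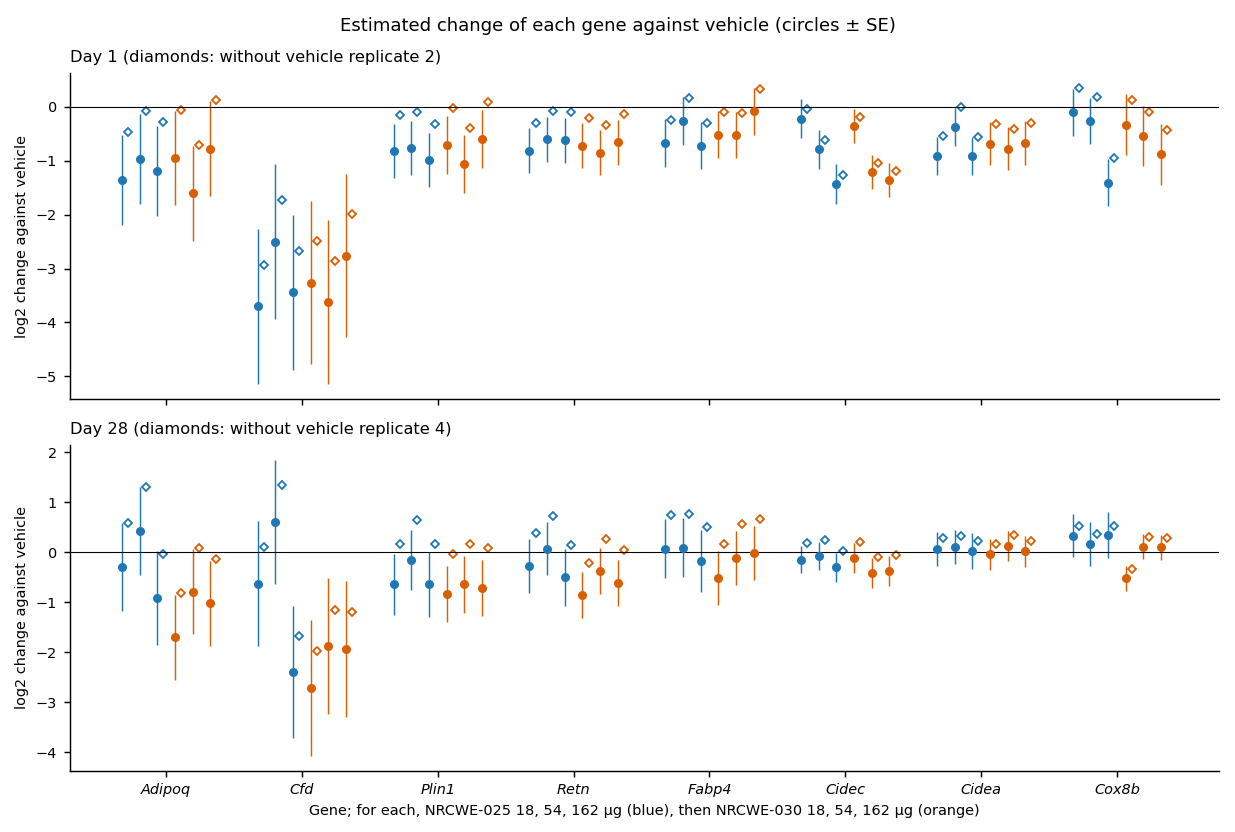
Change of 8 members against vehicle on the log2 scale (y axis) for each dose of each material, as circles with the SE, on day 1 (top) and day 28 (bottom), with blue for NRCWE-025 and orange for NRCWE-030. Diamonds leave out the vehicle mouse with the highest fat genes. On day 1 the diamonds lie above the circles, as for Adipoq at 162 µg NRCWE-030 (-0.78 and 0.12).

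For day 28, 0 of 30 member contrasts were called for either material, beside 0.0590% of all genes at 18 µg, 0.0268% at 54 µg and 0.0161% at 162 µg of NRCWE-025 and 0.118%, 0.0536% and 0.0965% at the same doses of NRCWE-030. At an unadjusted p under 0.05 there were 0 and 1, beside 7.07% to 8.89% of all genes per dose for NRCWE-025 and 6.52% to 9.03% for NRCWE-030. On day 1 the unadjusted count for NRCWE-030 was 4 of 30, beside 7.30%, 8.76% and 12.9% of all genes at the 3 doses.

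Cox8b was lowest with 162 µg NRCWE-025 on day 1, at 2.59, 2.99, 2.60, 1.56 and 1.47 against 3.80, 5.46, 3.00, 3.25 and 2.73 in vehicle mice. The groups overlapped by 1 mouse of each. The change was -1.41 ± 0.43 (SE, limma, adjusted p = 0.165), and -0.95 without vehicle replicate 2. On day 28 the same dose gave 4.28, 3.14, 3.15 and 3.35 against 3.34, 2.73, 3.25, 3.89 and 2.47 in vehicle mice. The effect on day 1 minus that on day 28 was -1.75 ± 0.66 (SE, adjusted p = 0.315 by limma), and 0 members were called for this difference with either material, beside 0.0590% of all genes for NRCWE-025 and 0.198% for NRCWE-030. In the same day 1 contrast all 13 heart muscle estimates were below 0 (median -1.25). The list mean per mouse was 0.22 to 0.77 in the treated mice. In vehicle replicates 1 to 5 it was 2.05, 4.45, 0.45, 0.33 and 0.34, so only replicates 1 and 2 stood above the treated range. The part of the heart muscle genes in the Cox8b values was not tested.

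Cidea was below the vehicle mean of 2.45 in all 6 dose groups of day 1, whose means lay between 1.53 and 2.08. The estimates of -0.92 to -0.37 had adjusted p of 0.271 to 0.971 by limma, and without vehicle replicate 2 they were -0.55 to -0.0022. Foxj1 was below its vehicle mean in the same 6 groups, by estimates of -0.73 to -0.14 (adjusted p = 0.445 to 0.963), and its part in the Cidea values was not tested. On day 28 the 6 estimates lay between -0.04 and 0.13.

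Lep and Ucp1 stayed at the floor of the assay. Lep was well above background on 1 vehicle mouse of each day and on 4 treated mice of 59, with ratios between -0.08 and 0.39 overall. Ucp1 ran from -0.26 to 0.70, and both mice in which it was well above background, at -0.0022 and 0.70, were vehicle mice of day 1. The 6 changes of Ucp1 against vehicle on day 1 ran from -0.19 to 0.03, and from -0.047 to 0.17 without vehicle replicate 2, and no contrast was called.

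**Figure D5:**
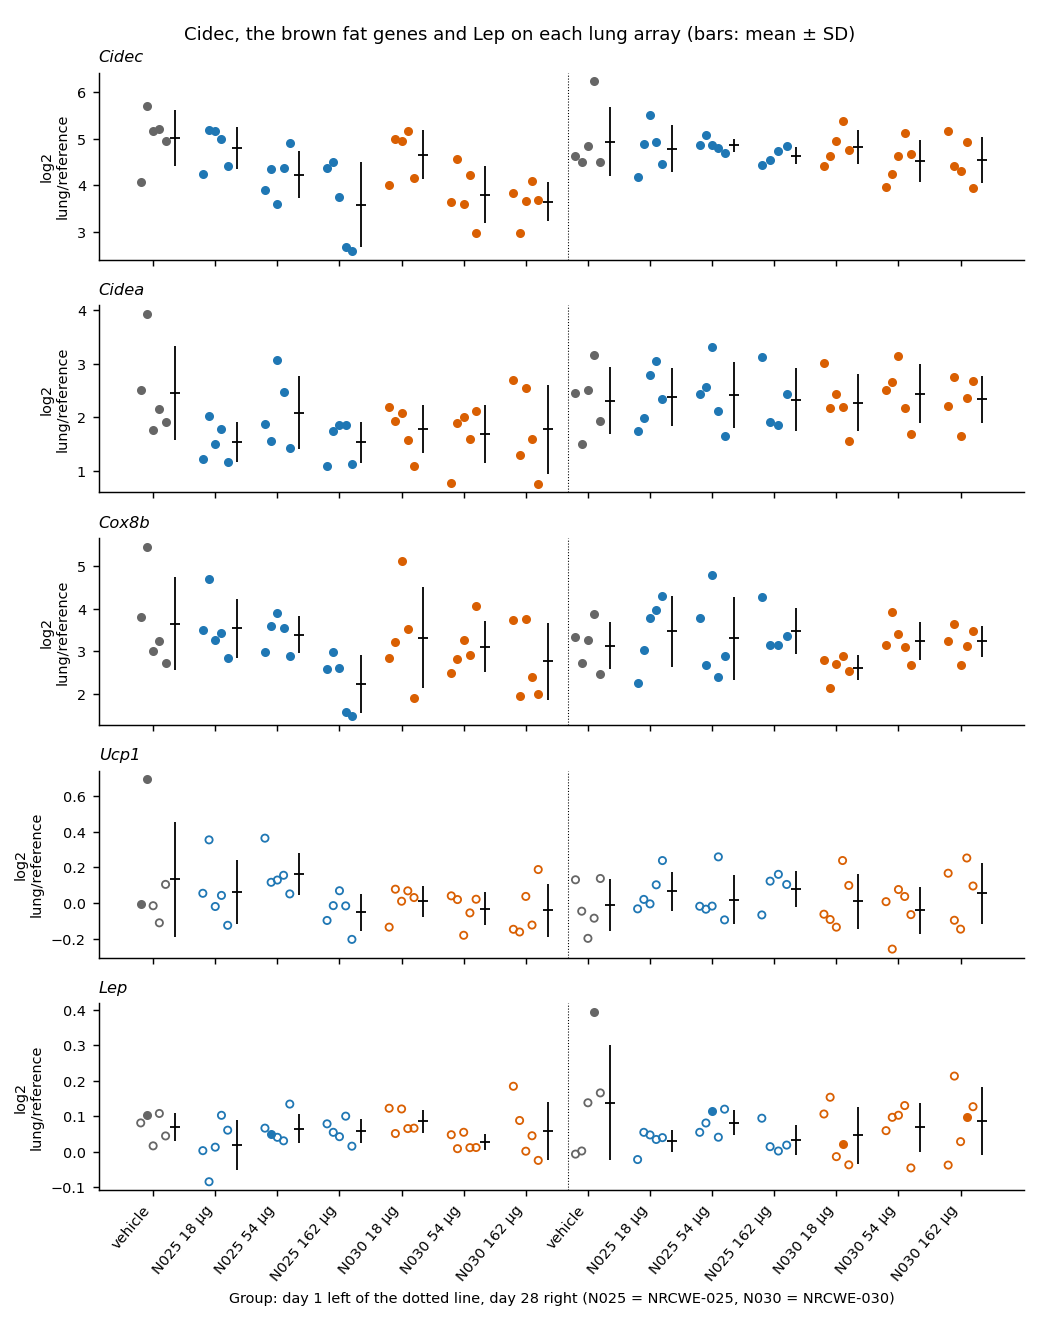
Log2 ratio of lung over reference (y axis) of Cidec, Cidea, Cox8b, Ucp1 and Lep on each of the 69 arrays, by group (x axis), drawn as for the white fat genes. Filled circles are well above background in the lung channel and open circles are not, and bars give the group mean ± SD. Cidec has means of 3.59 and 3.65 at 162 µg on day 1 against 5.02 in vehicle mice, and the highest Ucp1 and Lep values are 0.70 and 0.39.

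Between days, averaged over the 7 treatments, 3 of 10 members were called higher on day 28 by limma, beside 16.8% of all genes (8.72% higher). Cfd differed by 1.65 ± 0.59 (SE, adjusted p = 0.0434), with a median of 1.76 on day 1 and 5.17 on day 28. Cidea differed by 0.52 ± 0.14 (SE, adjusted p = 0.00579) and Cidec by 0.48 ± 0.12 (SE, adjusted p = 0.00439). Adipoq differed by 0.67 ± 0.33 (SE, adjusted p = 0.156). With single arrays left out in turn, Cfd no longer passed in 38 of 69 fits (adjusted p = 0.0220 to 0.0703), while Cidea and Cidec passed in all 69.

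The 3 calls were lost once slides were taken into account. Of 19 slides 18 held mice of 1 day, and with the slide as a random block the adjusted p was 0.287 for Cfd, 0.226 for Cidea and 0.130 for Cidec. On the 1 slide with both days, with 1 mouse of day 28 and 2 of day 1, the difference was 0.86 for Cfd, -0.72 for Cidea and 0.39 for Cidec. That day 28 mouse was replicate 5 of 18 µg NRCWE-030, the array whose deposited values tracked the ratios without background correction least (r = 0.922). With the scan day as a block, where 7 of 11 scan days held both days, the differences were 1.80, 0.43 and 0.41 (adjusted p = 0.0876, 0.0711 and 0.0602), and within those 7 scan days Cfd was higher on day 28 in 6, Cidea in 5 and Cidec in 5.

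Some markers differed between the days as well, in the fit without a block for slide or scan day. Of 19 slides 1 held both days, so day and slide are hardly separated in these values. Myh6 was 0.86 ± 0.26 (SE) higher on day 28 (adjusted p = 0.0154 by limma) and all 13 heart muscle estimates were above 0 (median 0.86), with 1 of 13 called. The cilia gene Foxj1 was 0.33 ± 0.12 (SE) higher (adjusted p = 0.0424), and the macrophage receptor Marco differed by -0.61 ± 0.10 (SE, adjusted p = 2.48e-05). Each was the only called gene of its list, of 7 lung epithelium and 4 alveolar macrophage genes measured, where 16.8% of all genes were called. The part of these markers in the day differences of the members was not tested. Between the vehicle mice of the 2 days 0 members were called (0.0375% of all genes) and 0 had an unadjusted p under 0.05, with Cfd at 0.17 ± 1.54 (SE) and Cidec at -0.08 ± 0.32.

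Of the other listed fat genes, 3 of 24 passed the F test among the 14 groups (Cd36, Lipe and Pparg), beside 8.34% of all genes. On day 28, 4 were higher (Cd36, Lipe, Pparg and Cebpa, by 0.15 to 0.22), beside 8.72% of all genes called higher. The day calls of the listed genes come from the fit without a block for slide or scan day. Of 19 slides 1 held both days, so day and slide are hardly separated in them. Pparg and Cebpa encode the master regulators of fat cell formation, and Lipe encodes hormone-sensitive lipase. The median day difference was 0.02 over the 24 genes against -0.00027 over all genes. None of the 24 was called against vehicle in any of the 12 contrasts, but Pparg was called for the effect of 162 µg NRCWE-030 on day 1 minus that on day 28, at -0.84 ± 0.18 (SE, adjusted p = 0.0207 by limma), beside 0.198% of all genes. Of 18 thermogenic genes 0 passed the F test and 2 were higher on day 28, beside the same 8.34% and 8.72% of all genes. These were Plin5, a lipid droplet protein of oxidative tissues, by 0.58 and Pdk4, a kinase that restrains glucose oxidation, by 0.35. The median over the list was 0.05.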

How the data were processed

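Lung RNA of 69 mice was measured, 1 per two-colour array. The authors deposited scanner files from Feature Extraction 11.0.1.1 with spot intensity values, quality marks and a log10 ratio per spot, and a table of log2 ratios; the methods name LOWESS normalization for these two-colour data, without saying whether it made that table. The log10 and log2 ratios served as alternatives. Median intensity was corrected with normexp (offset 50; marked outlier backgrounds replaced by the array's median background), loess-normalized within arrays (limma 3.58.1, R 4.3.3), and summarised as the median of spots per probe and of probes per gene. Spots that the scanner marked as outliers did not enter. Probes were named through RefSeq (GRCm38.p6). The deposited log2 table tracked ratios without background correction (median r 0.996). The lowest r was 0.922, for replicate 5 of 18 µg NRCWE-030 on day 28.

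Groups were compared with limma and Benjamini-Hochberg adjustment over 18656 genes, called at an adjusted p under 0.05: one fit over all groups for F tests among groups, materials and days, and one fit per material and day with its vehicle mice for doses. Correlations used two-sided permutation tests with 100000 resamples. The text names all members, the 10 genes with the highest r to Adipoq, Ucp1 and Cox8b among those well above background on at least 10 arrays, Myh6, and up to 5 called genes of each list with the largest changes; other genes were chosen after their values were seen. The members and lists were chosen with earlier results of these data known. Precision is limited by 4 or 5 arrays per group: 49.1% to 72.8% of probes per array were well above background in the lung channel. On data simulated for 162 µg NRCWE-030 on day 1 over 18656 genes the test recovered 95% of genes changed by 1 and 100% of genes changed by 2 on the log2 scale. The changed genes were drawn at random from all genes, and 14 unchanged genes were called. The simulated noise was normal and independent between genes and arrays. It held no slide or scan day effects and no single high mice as in the real arrays. These shares do not give the power for single members: the Cfd change at 162 µg NRCWE-025 on day 1, for example, had an SE of 1.44. Nothing in the labels names separate cages or batches of mice. The main fits had no block, so their p-values measure the spread between these mice together with any slide or scan day effect. The slide (19) and scan day (11) were tried as blocks. The lists also covered skeletal muscle, thymus, mesothelium and capillary endothelium; of their measured genes, 1 of 8 (Acta1, -0.28), 0 of 4, 0 of 4 and 0 of 6 were called between days, and against vehicle 1 was called, the endothelial Ednrb (-0.58 at 162 µg NRCWE-030 on day 1). Leaving out the vehicle mouse with the highest fat genes of each day was chosen after seeing the data.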

Additional observations from a re-analysis of the deposited data

Results flagged for a closer look

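Each gene was checked in each of the 14 groups for a mouse that stood apart from the others by Dixon's gap criterion. Of 140 sets 21 had one, where the criterion gives about 5% for normally distributed values. Of these 20 were the highest mouse and 1 the lowest, in 8 of the 10 genes. The genes are correlated, so these are not separate events. The share of such sets over all genes was not computed, so the count does not set the fat genes apart.

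Vehicle replicate 2 of day 1 stood apart for Adipoq (log2 ratio of 5.27), Retn (2.82) and Ucp1 (0.70). Vehicle replicate 4 of day 28 stood apart for Plin1 (4.63), Retn (3.36), Fabp4 (5.76) and Cidec (6.22). The mean of the heart muscle genes was 4.45 and 3.09 in these mice.

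Of the treated mice of day 1, replicate 2 of 18 µg NRCWE-025 stood apart for Adipoq (2.21), Cfd (6.58), Plin1 (1.15), Retn (0.57) and Fabp4 (3.40). Replicate 3 of 18 µg NRCWE-030 stood apart for Adipoq (3.75), Cfd (6.67) and Retn (1.12). Replicate 4 of 162 µg NRCWE-025 stood apart for Adipoq (2.77) and Retn (1.09), replicate 3 of 54 µg NRCWE-025 for Retn (0.99) and replicate 5 of 54 µg NRCWE-030 for Adipoq (0.96).

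On day 28, replicate 4 of 54 µg NRCWE-025 was the highest for Ucp1 (0.26) and replicate 1 of 18 µg NRCWE-025 the lowest for Lep (-0.022), both not well above background.

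Between days, the Cox8b change at 162 µg NRCWE-025 differed by -1.75 (day 1 minus day 28), with an unadjusted p of 0.0101 and an adjusted p of 0.315 by limma.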

How the results depend on the processing

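No paired analysis was possible because the replicate numbers follow the order of the samples and pair no mice across groups. The dose calls for NRCWE-025 on day 1 and for both materials on day 28, the day 28 contrasts and the calls between materials stayed at 0 in all 13 other settings and without any 1 array; the cause of the changes below was not tested. The count of fat genes called among the 14 groups went from 1 to 0 with marked backgrounds kept, the series' processed values, scaling between arrays or the slide as a fixed block, and by the scanner ratio the gene called was Cidea (adjusted p = 0.0304) in place of Cidec. The dose count of NRCWE-030 on day 1 went from 0 to 1 with dim genes filtered or the slide as a random block (0 to 1 without single arrays: vehicle replicate 1, replicate 1 of 18 µg or replicate 2 of 54 µg). The contrast count of NRCWE-030 on day 1 went from 1 to 0 without background correction, with the processed values, the scanner ratio, scaling, the unmoderated test, the slide or the scan day as a fixed block, or without the 2 vehicle arrays that stood apart (0 to 1 without single arrays), and that of NRCWE-025 ranged from 0 to 1 (1 without replicate 2 of 162 µg). The count between days went from 3 to 0 with marked backgrounds kept and with each slide or scan day block, to 1 without background correction or with scaling, to 2 with the processed values (without Cidec) or the unmoderated test (without Cfd), and ranged from 2 to 3 without single arrays.

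The correlation of Ucp1 with Adipoq was -0.043 by the scanner ratio and -0.022 without the 2 vehicle arrays (-0.061 to 0.19 without single arrays, lowest without vehicle replicate 2 of day 1). That with Cidea was 0.31 and 0.27 with slide or scan day means removed. That with Cox8b was 0.19 with marked backgrounds kept, 0.10 by the scanner ratio, 0.24 with group means removed and 0.19 without the 2 vehicle arrays (0.18 to 0.37 without single arrays). That with Myh6 was -0.067 by the scanner ratio and 0.28 and 0.27 with slide or scan day means removed. The correlation of Cidec with Adipoq ranged from 0.13 to 0.30 without single arrays.

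Of the changes at 162 µg, these changed sign. Without the 2 vehicle arrays, NRCWE-030 on day 1 gave 0.12 for Adipoq, 0.085 for Plin1 and 0.34 for Fabp4. On day 28, NRCWE-025 gave 0.17 for Plin1, 0.15 for Retn, 0.50 for Fabp4 and 0.027 for Cidec, and NRCWE-030 gave 0.093 for Plin1, 0.039 for Retn and 0.67 for Fabp4. With the slide as a fixed block, NRCWE-030 gave 0.44 for Adipoq, 0.15 for Plin1 and 0.62 for Fabp4 on day 1 and 0.10 for Retn and 0.71 for Fabp4 on day 28, NRCWE-025 on day 28 gave -0.20 for Cidea and -0.32 for Cox8b, and the day difference of Cidea was -0.75. With the scan day as a block, NRCWE-025 gave 0.15 for Adipoq and 0.047 for Retn on day 1 and -0.20 for Cidea and -0.32 for Cox8b on day 28, and NRCWE-030 gave 0.36 for Fabp4 on day 1 and 0.10 for Retn and 0.69 for Fabp4 on day 28. With the slide as a random block, Fabp4 gave 0.12 (NRCWE-030, day 1) and 0.16 (NRCWE-030, day 28) and Cidea -0.055 (NRCWE-025, day 28). Scaling gave 0.14 for Fabp4 on day 1 and -0.10 for Cidea and -0.062 for Cox8b on day 28, marked backgrounds kept -0.15 for Cidea and -0.00464 for Cox8b, and the scanner ratio 0.37 for Cidec and -0.0298 for Cox8b, all with NRCWE-030.

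Without single arrays the ranges that crossed 0 were, for NRCWE-030 on day 1, -1.20 to 0.12 (Adipoq), -0.90 to 0.085 (Plin1) and -0.35 to 0.34 (Fabp4). For NRCWE-025 on day 28 they were -0.97 to 0.17 (Plin1), -0.72 to 0.15 (Retn), -0.47 to 0.50 (Fabp4), -0.41 to 0.027 (Cidec) and -0.24 to 0.23 (Cidea). For NRCWE-030 on day 28 they were -1.04 to 0.093 (Plin1), -0.83 to 0.039 (Retn), -0.30 to 0.67 (Fabp4), -0.18 to 0.23 (Cidea) and -0.067 to 0.29 (Cox8b). Values of Lep, Ucp1 and much of Adipoq and Retn lie near background, which limits their order.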
